A study of Mus musculus with 9 samples.

Results

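Histone genes were followed in poly(A)-selected RNA of mouse hippocampal area CA1. They were chosen by name, as the table rows of the Hist1 to Hist4 gene clusters together with the replacement histone genes H1f0, H1fx, H3f3a and H3f3b, wherever at least 1 of 9 libraries had a value above 0. This gave 77 rows with 70 gene symbols, among 18813 named rows with a value above 0. The 66 symbols of the Hist1 to Hist4 clusters are called canonical here by name alone. They include Hist3h2bb-ps, which is annotated as a processed pseudogene and is counted with the H2B genes. For the 7 symbols on 2 rows the row of higher mean was used. The libraries form 3 groups of 3 biological replicates from C57BL/J6 mice of 9 to 12 weeks. The naive group received an adeno-associated virus (AAV) carrying a short hairpin RNA (shRNA) against the histone variant H2A.Z and had no training. The trained group received the same virus and underwent contextual fear conditioning, in which a chamber is paired with a foot shock. The control group received an AAV with a scrambled shRNA. All 9 libraries therefore come from virus-infected tissue. Not given in the sources used here are the promoter of the hairpin, the share of cells infected, whether control mice were trained, and the time after training.

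Canonical histones package newly replicated DNA, and their genes are transcribed mostly in S phase. Their mRNAs usually end not in a poly(A) tail but just after a conserved stem-loop, which is bound by the stem-loop binding protein SLBP and cut by the U7 ribonucleoprotein. Replacement histones such as H3.3 and H1.0 are made outside S phase from ordinary polyadenylated mRNAs, and H3.3 builds up with age on the chromatin of neurons, which do not divide. Selection for poly(A) is meant to keep the histone transcripts that carry a tail. How much RNA without a tail was carried over was not measured, so a value here does not show that the transcript is tailed.

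The stem-loop that ends a canonical histone mRNA is shown first for 7 members, chosen for their level or for their place among the smallest p-values. Capitals mark the stem-loop, and 5 bases are shown on either side, 5′ to 3′ on the strand of the gene, from GENCODE M21 transcripts on GRCm38, the assembly also called mm10.
Hist3h2a: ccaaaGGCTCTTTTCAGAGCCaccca
Hist3h2ba: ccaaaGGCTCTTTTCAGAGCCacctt
Hist2h2aa1: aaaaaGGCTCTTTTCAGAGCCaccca
Hist1h1c: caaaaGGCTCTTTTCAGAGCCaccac
Hist1h2bg: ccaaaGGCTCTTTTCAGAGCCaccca
Hist2h2ac: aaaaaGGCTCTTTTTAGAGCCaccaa
Hist1h4h: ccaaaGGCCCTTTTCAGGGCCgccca
These lie at chr11:58955167-58955192 (plus strand) for Hist3h2a, chr11:58949344-58949369 (plus) for Hist3h2ba and chr3:96246027-96246052 (plus) for Hist2h2aa1. Hist1h1c has its stem-loop at chr13:23739507-23739532 (plus), Hist1h2bg at chr13:23571838-23571863 (plus), Hist2h2ac at chr3:96220413-96220438 (minus) and Hist1h4h at chr13:23531453-23531478 (plus).

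The search asked for the letters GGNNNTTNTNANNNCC on the sense strand within 100 bases after the stop codon, with the first 6 bases pairing with the last 6 around a loop of 4. Such a match was present in 45 of the 56 members with annotated bases after the stop codon (80.4%), against 5 of 20949 other coding genes (0.0239%). On the opposite strand it was found in 0 members and in 1 other gene. It began 21 to 58 bases after the stop codon, with a median of 31. The form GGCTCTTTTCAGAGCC was shared by 25 members of the H1, H2A, H2B and H3 families, while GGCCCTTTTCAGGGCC was found in 7 members, all of them H4 genes.

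Several members carry, in addition or instead, the hexamer that directs cleavage and polyadenylation. The lines below show 30 bases around it, with the hexamer in capitals, for a pair of replacement genes and for 4 canonical genes.
H3f3a: aatttgaaaaatAATAAAagtaccaataga
H1f0: ttaaaactttaaAATAAAactggaaaggaa
Hist3h2a: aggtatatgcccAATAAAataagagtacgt
Hist3h2ba: cataatggtattAATAAAtttggttcaatt
Hist1h1c: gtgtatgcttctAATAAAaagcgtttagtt
Hist2h2be: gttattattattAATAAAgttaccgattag
Their positions are chr1:180800836-180800865 (minus) for H3f3a, chr15:79030471-79030500 (plus) for H1f0 and chr11:58956785-58956814 (plus) for Hist3h2a. Those of Hist3h2ba, Hist1h1c and Hist2h2be are chr11:58949495-58949524, chr13:23740330-23740359 and chr3:96223705-96223734, all on the plus strand. AATAAA or ATTAAA stood in the last 50 bases of a coding transcript in 19 of 56 members (33.9%), against 80.4% of other coding genes. Hist3h2a, Hist3h2ba and Hist1h1c hold both ends in their annotated transcript: the stem-loop first and, further on, the hexamer.

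The measured unit was FPKM, a fragment count divided by transcript length and by the size of the library. The steps between low values put 1 FPKM at roughly 18.6 to 26.9 fragments for each kilobase, so the many members under 1 FPKM rest on few fragments. The target of the hairpin, H2afz, encodes H2A.Z.1. It stood at 25.1, 27.8 and 28.0 FPKM in libraries labelled naive, 28.5, 23.9 and 25.8 FPKM in those labelled trained and 26.1, 28.7 and 26.4 FPKM in those labelled control, and the groups overlapped, so no drop of the target was seen. Every direction below is therefore between libraries as they are labelled. Markers of other cell types were read beside the members, and 0 genes of these lists passed the adjusted threshold in limma in the 4 comparisons. Astrocyte markers (9 genes) summed to 892 to 1048 FPKM in naive, 820 to 927 in trained and 810 to 883 in control libraries. The naive astrocyte sums thus lay above the control sums. The summed level of 16 microglial markers was 408 to 823 FPKM in naive, 406 to 619 FPKM in trained and 314 to 390 FPKM in control libraries, without overlap between hairpin and control libraries, and 16 of 16 estimates were above 0 for naive and 15 of 16 for trained against control. Dentate granule markers (16 genes) summed to 342 to 441 FPKM in naive, 252 to 409 in trained and 188 to 357 in control libraries. Those of CA1 neurons (11 genes) summed to 360 to 407, 360 to 433 and 382 to 527 FPKM in the same groups. The sums overlapped in both lists. Against control, 16 of 16 dentate estimates were above 0 for naive and for trained, with median log2 fold changes of 0.73 and 0.36. Of 10 CA1 markers tested, 8 were below 0 for naive and 10 for trained, with medians of -0.29 and -0.10. Over all genes 55.1% were above 0 for naive and 47.2% for trained. Of 11 oligodendrocyte markers, 10 were below 0 for naive against control (median -0.24) and 7 for trained against control (median -0.05). For trained against naive 11 of 11 were above 0 (median 0.18), against 41.3% of all genes. Of 10 endothelial and mural markers, 8 were above 0 for naive against control, 3 for trained against control and 2 for trained against naive. Choroid plexus and ependymal markers (10 genes) summed to 13.7 to 33.9 FPKM in naive, 47.9 to 110 FPKM in trained and 42.5 to 801 FPKM in control libraries. The naive sums thus lay below the trained and the control sums. Lymphocyte and plasma cell markers (16 of 18 above 0) summed to 34.7 to 43.2 FPKM in naive, 42.0 to 114 FPKM in trained and 34.5 to 47.0 FPKM in control libraries, and Xbp1, which many cell types express, made up 33.1 to 46.4 FPKM of it in every library. Igj, the joining chain of antibodies made by plasma cells, stood at 0.0660, 0.0716 and 0.155 FPKM in naive, 0.184, 61.6 and 18.5 FPKM in trained and 0.0873, 0.0450 and 0.0372 FPKM in control libraries. Mzb1, another plasma cell gene, was at 7.87 and 1.94 FPKM in trained replicates 2 and 3 and at 0 to 0.0978 FPKM in the other 7 libraries. Trained replicates 2 and 3 thus stand apart in plasma cell genes. The part of these differences in histone levels was not tested, and in bulk tissue fewer cells of a type and less RNA per cell cannot be told apart.

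The pair of H3.3 genes had the highest levels of all members by mean. H3f3a, one of the pair of genes for H3.3, stood at 94.3, 94.6 and 108.02 FPKM in naive libraries, 99.0, 86.5 and 86.1 FPKM in trained libraries and 89.5, 83.9 and 90.7 FPKM in control libraries. All naive libraries lay above all control libraries, and the trained ones spanned both. H3f3b, the other H3.3 gene, stood at 74.2, 77.3 and 85.02 FPKM in naive libraries, 69.5, 66.9 and 69.4 FPKM in trained libraries and 64.5, 82.4 and 78.6 FPKM in control libraries. Here every trained library was below every naive library, while the control libraries overlapped both groups. Of the FPKM of all H3 members, H3f3a and H3f3b held 96.0% to 97.4% across the 9 libraries.

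Among linker histones, which bind the DNA entering and leaving the nucleosome, H1f0 (H1.0, enriched in cells that have left the cycle) was the highest. It stood at 42.3, 40.5 and 43.0 FPKM in naive libraries, 37.4, 36.7 and 36.2 FPKM in trained libraries and 36.6, 42.7 and 43.2 FPKM in control libraries. The trained libraries were all below the naive ones, and control replicate 1 fell among the trained values. H1fx, which encodes H1X, stood between 15.8 and 19.6 FPKM in naive, 15.7 and 17.1 FPKM in trained and 16.3 and 18.5 FPKM in control libraries, so all groups overlapped. Together H1f0 and H1fx held 72.9% to 81.3% of all H1 FPKM.

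Among canonical genes a few carried most of the signal. Of 66 symbols, 5 averaged at least 10 FPKM, 18 lay between 1 and 10 FPKM, and 43 averaged under 1 FPKM. Hist1h2bc, an H2B gene of the large cluster on chromosome 13, was the highest, followed in every library by Hist3h2a and Hist3h2ba, an H2A and an H2B gene that lie near each other on chromosome 11. Hist1h2bc stood at 56.6, 69.5 and 68.9 FPKM in naive libraries, 64.4, 55.04 and 60.8 FPKM in trained libraries and 64.3, 54.3 and 61.2 FPKM in control libraries. All 3 groups overlapped.

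Hist3h2a stood at 38.2, 38.9 and 49.0 FPKM in naive libraries, 41.5, 31.6 and 29.9 FPKM in trained libraries and 39.4, 27.4 and 35.1 FPKM in control libraries. The groups overlapped, with naive replicate 3 above all other libraries. Hist3h2ba stood at 23.0, 22.0 and 24.4 FPKM in naive libraries, 20.7, 19.2 and 24.5 FPKM in trained libraries and 21.5, 23.4 and 23.3 FPKM in control libraries, and again all groups overlapped.

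Next came Hist2h2aa1, an H2A gene of chromosome 3, and Hist1h1c, which encodes the linker histone H1.2. Their order changed from library to library. Hist2h2aa1 stood at 14.5, 15.3 and 17.0 FPKM in naive, 15.6, 12.8 and 11.2 FPKM in trained and 13.2, 13.1 and 14.7 FPKM in control libraries. Hist1h1c stood at 14.5, 19.0 and 12.6 FPKM in naive, 12.0, 14.2 and 14.4 FPKM in trained and 10.9, 13.2 and 14.3 FPKM in control libraries. Both genes had overlapping groups. Hist1h2bg, an H2B gene, followed at 6.96, 7.39 and 8.08 FPKM in naive, 7.18, 6.40 and 6.49 FPKM in trained and 7.19, 6.41 and 6.75 FPKM in control libraries, also with overlap.

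**Figure D1:**
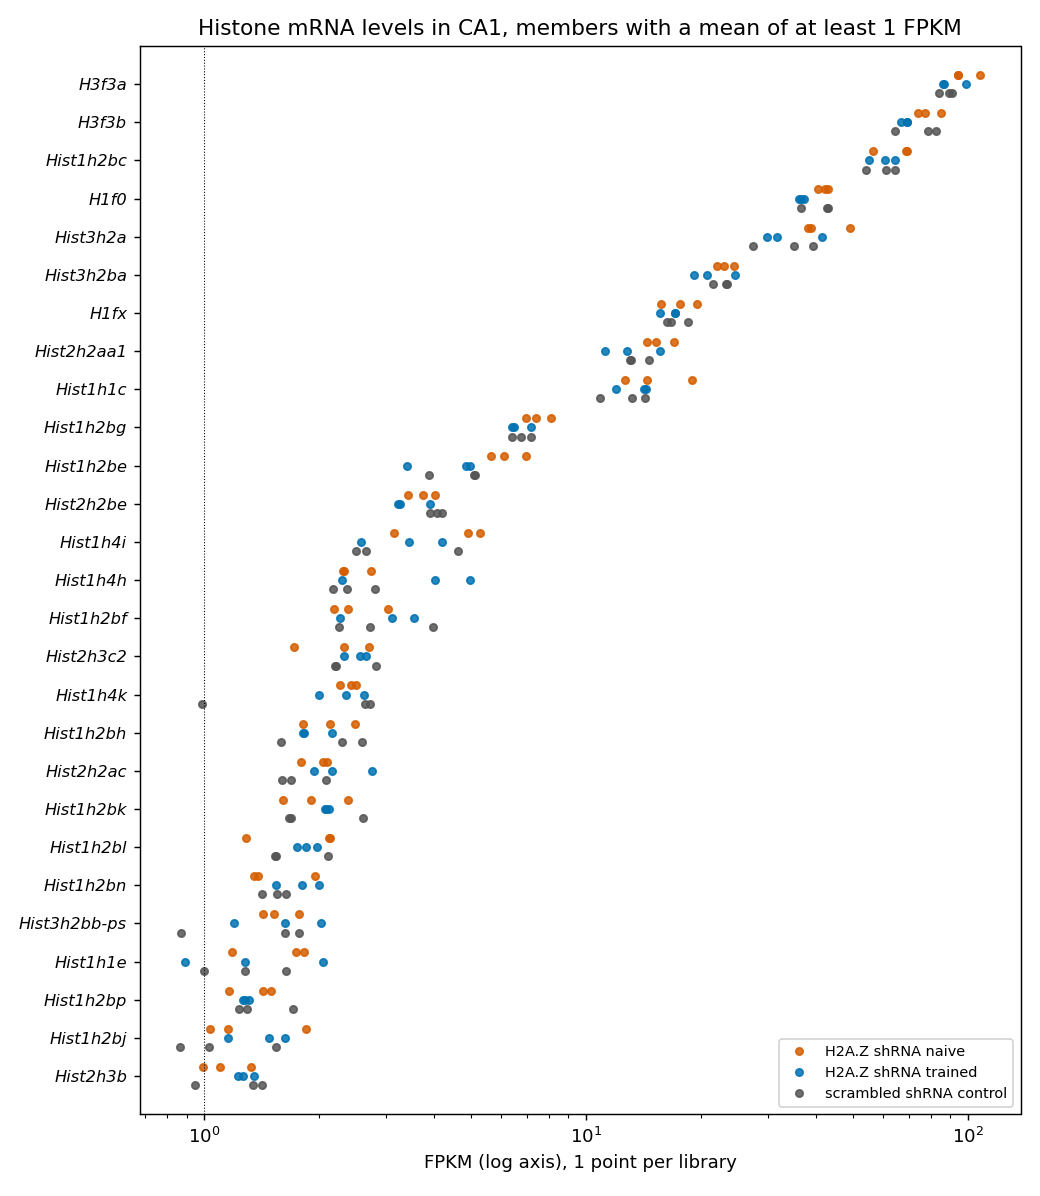
Level of the 27 members with a mean of at least 1 FPKM, in FPKM on a log axis, 1 point per library, with naive, trained and control libraries from top to bottom of each row and a dotted line at 1 FPKM. H3f3a, H3f3b and Hist1h2bc lie highest, and for most genes the points of the 3 groups intermix.

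The level was uneven within each family. Hist1h2bc alone made up 49.8% to 54.95% of canonical H2B FPKM, Hist3h2a 58.2% to 66.4% of canonical H2A and Hist1h1c 83.7% to 91.1% of canonical H1. Hist1h2bc, Hist3h2a, Hist3h2ba and Hist2h2aa1 together held 60.0% to 67.5% of all canonical histone FPKM. By family, the sum over genes was 122 ± 10.3 FPKM in naive, 114 ± 6.15 FPKM in trained and 115 ± 5.77 FPKM in control libraries for H2B (SD, n = 3 each). For H2A it was 65.8 ± 7.53 FPKM in naive, 57.0 ± 7.49 FPKM in trained and 54.1 ± 7.03 FPKM in control libraries. The naive H2A sums, at 61.3, 61.5 and 74.5 FPKM, all lay above the control sums of 59.3, 46.1 and 56.9 FPKM, and Hist3h2a holds most of both. Canonical H3 genes summed to 5.55 ± 0.998 FPKM in naive, 5.496 ± 0.422 FPKM in trained and 5.40 ± 0.854 FPKM in control libraries, and canonical H4 genes to 12.6 ± 0.242, 15.04 ± 2.603 and 11.5 ± 3.29 FPKM in the same groups. Canonical H1 genes summed to 17.5 ± 3.73 FPKM in naive, 15.4 ± 1.99 FPKM in trained and 14.6 ± 1.55 FPKM in control libraries.

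The sum over all 66 canonical genes was 205, 230 and 236 FPKM in naive libraries, 214, 198 and 208 FPKM in trained libraries and 214, 183 and 204 FPKM in control libraries. That over the 4 replacement genes was 227, 230 and 256 FPKM in naive libraries, 223, 207 and 207 FPKM in trained libraries and 207, 226 and 231 FPKM in control libraries. Groups overlapped in both sums for naive against control and for trained against control, while the trained replacement sums all lay below the naive ones. The 4 replacement genes summed to slightly more than all 66 canonical genes in the mean of every group.

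**Figure D2:**
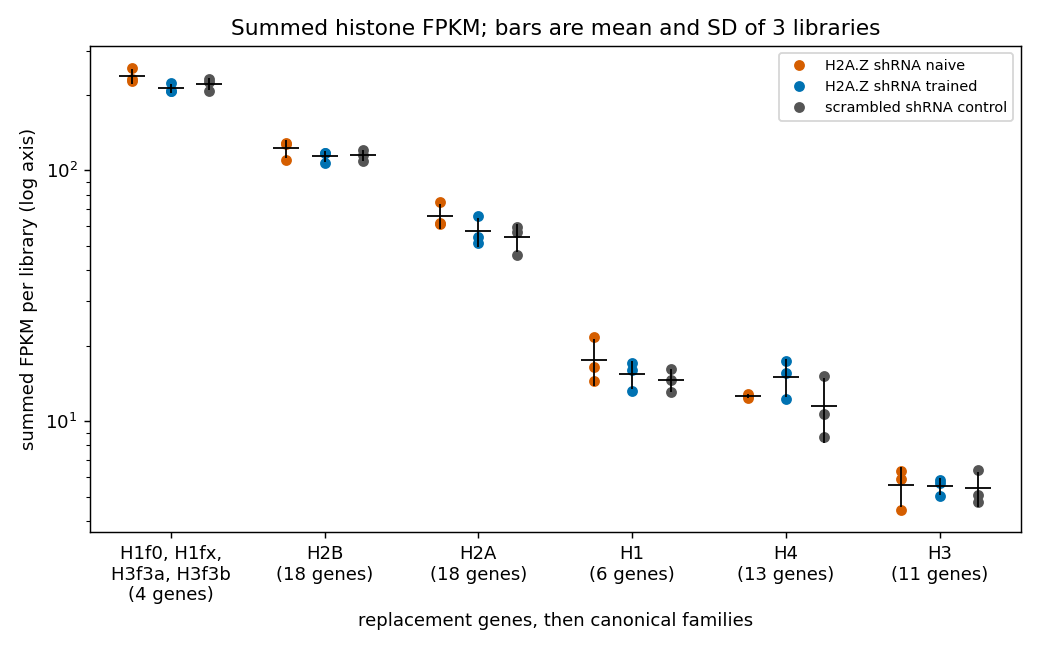
Summed FPKM (log axis) of the 4 replacement genes and of each canonical family, 1 point per library, for naive, trained and control libraries, with mean and SD of 3 libraries as bars. H2B and H2A make up most of the canonical sum, and the groups overlap in the canonical families, except that every naive H2A sum (61.3 to 74.5 FPKM) lies above every control sum (46.1 to 59.3 FPKM); the trained replacement sums lie below the naive ones.

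The abundant members differ in how their transcripts are annotated to end. Hist1h2bc (chr13:23684199-23692908, plus strand, GRCm38) has a first exon that ends 9 bases after the stop codon, an intron of 7554 bases, and a second exon of 733 bases that is wholly 3′ UTR. No stem-loop and no hexamer was found in the searched windows of that transcript, which says only that these letters were not there. Hist3h2a (chr11:58954685-58956830, plus) runs on for 1643 bases after its stem-loop, Hist3h2ba (chr11:58948920-58949533, plus) for 169 bases and Hist1h1c (chr13:23738808-23740367, plus) for 840 bases. Hist2h2aa1 (chr3:96245497-96246082, plus) ends 35 bases after it with no hexamer found. Hist2h2be (chr3:96221119-96223738, plus), an H2B gene with a 3′ UTR of 2192 bases and no stem-loop found in the window, stood at 3.75, 4.02 and 3.42 FPKM in naive, 3.90, 3.27 and 3.23 FPKM in trained and 3.91, 4.19 and 4.06 FPKM in control libraries.

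Across canonical genes, 15 with a hexamer at an annotated end had a median of 1.35 FPKM, and 8 of them reached 1 FPKM. The 35 with a longer 3′ UTR and no hexamer found had a median of 0.531 FPKM, with 11 at or above 1 FPKM. The 15 annotated with at most 2 bases after the stop codon had a median of 0.327 FPKM, with 3 at or above 1 FPKM. These medians are a description. The share of a gene's 50-base stretches that also occur in transcripts of other genes had a median of 24.6%, 54.1% and 79.7% in the same 3 classes, so unique sequence moves with the classes too and its part was not tested.

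**Figure D3:**
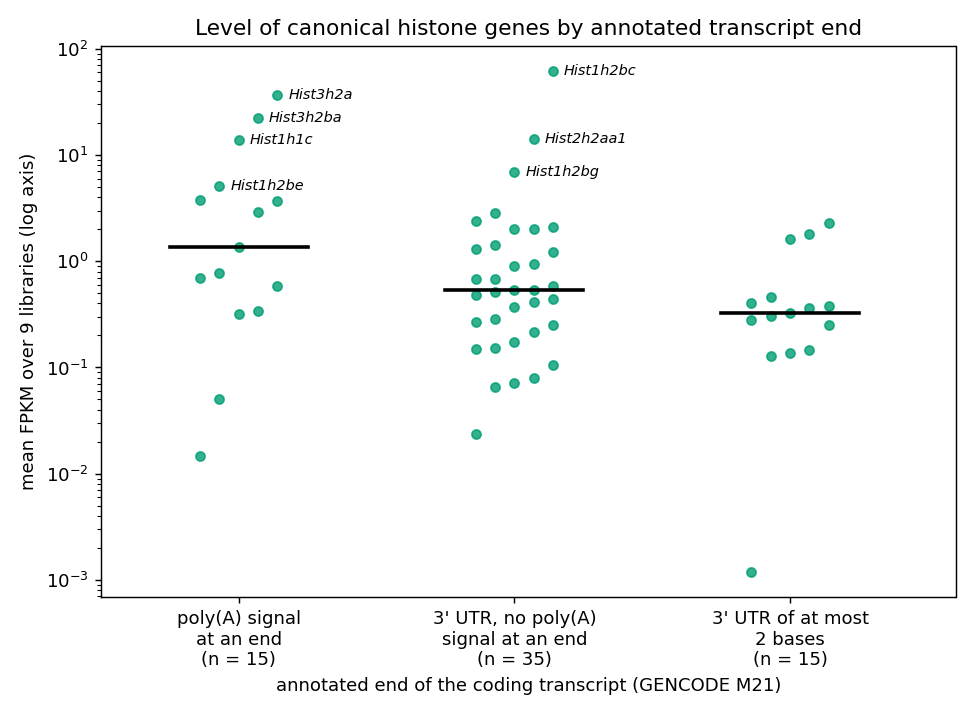
Mean FPKM over the 9 libraries (log axis) of canonical members by the annotated end of their transcripts, 1 point per gene, with a bar at the median of each class; the 1 pseudogene is not drawn. Members with a hexamer at an end have the highest median (1.35 FPKM), but every class spans a wide range.

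How long a transcript is assumed to be sets its FPKM. Of the 45 members with a stem-loop, the RefSeq span ends within 10 bases after it in 41, and for 20 of these the GENCODE model goes on for at least 100 bases more. For Hist3h2a the RefSeq span is 508 bases and the longest GENCODE transcript 2146 bases. Which gene models lie behind the deposited values was not stated, so comparisons of level between genes carry this uncertainty. It also bears on which genes pass the filter at 1 FPKM and, through the added 1, on the size of a fold change. Over 50% of the 50-base stretches were shared with other genes in 30 of 66 canonical members, and near-identical copies cannot be told apart: Hist2h2aa1 shares 89.4% of them, and its copy Hist2h2aa2 was listed at 0 in 7 of 9 libraries. Hist1h2be overlaps Hist1h1e on the same strand, Hist3h2a overlaps Trim17 on the same strand, and H3f3a has the antisense gene H3f3aos. The libraries were directional, but no source used here says whether the counting used strand.

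H2A and H2B genes often lie head to head with a shared promoter. Among the members 12 such pairs were found, with 172 to 305 bases between their starts. In 11 of the 12 the H2B gene had the higher FPKM in all 9 libraries. The exception was Hist3h2a, whose partner Hist3h2bb-ps is a pseudogene. The ratio of mean FPKM was 65.2 for Hist1h2bc over Hist1h2ac, 20.8 for Hist1h2bg over Hist1h2ae and 1.86 for Hist2h2be over Hist2h2ac. The sequence between Hist1h2ac and Hist1h2bc is shown because these genes differ most in level among pairs with both genes above 0 in all libraries. It is chr13:23683960-23684198 (RefSeq, GRCm38.p6), on the minus strand, which is that of Hist1h2ac. Capitals mark motif matches.
Hist1h2ac to Hist1h2bc: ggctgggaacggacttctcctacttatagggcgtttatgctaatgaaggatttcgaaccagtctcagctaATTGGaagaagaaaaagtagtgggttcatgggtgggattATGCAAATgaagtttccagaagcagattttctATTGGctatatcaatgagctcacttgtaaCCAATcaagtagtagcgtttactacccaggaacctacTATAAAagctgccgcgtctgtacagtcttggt
Searched on both strands were the CCAAT box (CCAAT), the octamer bound by Oct1 (ATTTGCAT) and a TATA box (TATAAA), none of which overlaps another here. The stretch held 3, 1 and 1 matches. In windows from 250 bases before to 50 after the RefSeq start, CCAAT was present in all 17 H2A and all 15 H2B promoters of the RefSeq table, against 37.9% of all 27025 promoters. The octamer was present in 7 of 17 H2A and 6 of 15 H2B promoters, against 1.75% of all. Windows of head-to-head neighbours cover much of the same stretch, so the H2A and H2B counts are not independent. A match of letters is not evidence of binding.

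**Figure D4:**
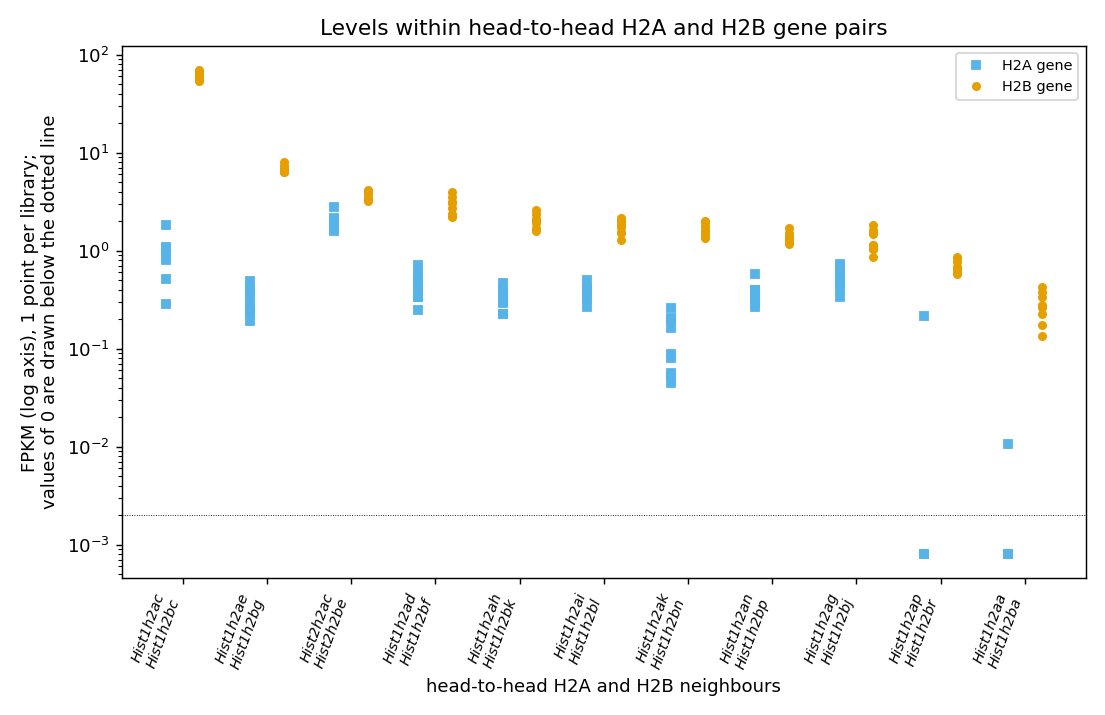
FPKM (log axis) of the H2A and the H2B gene of 11 head-to-head pairs in each of the 9 libraries, with values of 0 drawn below the dotted line. The H2B gene is higher in all 9 libraries in each of them; the pair of Hist3h2a with a pseudogene is not drawn.

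The naive libraries were set against the control libraries to ask what the H2A.Z hairpin goes with in untrained mice, as far as the controls were untrained too. Of the 27 members that averaged at least 1 FPKM (23 canonical and the 4 replacement genes), 0 passed a threshold of 0.05 in limma with p-values adjusted by Benjamini-Hochberg over the 12327 genes of the fit, and the background was 0% (0 of 12327 genes). The smallest adjusted p was 0.303 in limma with that adjustment, for Hist1h2be. This H2B gene stood at 5.63, 6.11 and 6.98 FPKM in naive libraries against 3.88, 5.11 and 5.12 FPKM in control libraries. All naive libraries lay above all control libraries (log2 fold change of FPKM + 1 of 0.35, SE 0.14). It was the 1 member with an unadjusted p under 0.05, against 15.5% of all genes in either direction and 9.81% for higher. The groups did not overlap for 2 of 27 members, H3f3a and Hist1h2be, both higher, against 19.4% of all genes in either direction, 11.2% for higher. Both counts are no larger than the background.

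Estimates for naive against control were above 0 for 20 of 27 members, against 55.1% of all genes, and the median log2 fold change of the members was 0.07, against 0.02 over all genes. For H3f3a the log2 fold change was 0.16 (SE 0.07), for Hist3h2a 0.31 (SE 0.16), for Hist1h2bc 0.11 (SE 0.10) and for Hist1h1c 0.23 (SE 0.15). A missed threshold does not show equal levels. The 95% intervals of the ratio of FPKM + 1 stayed between 0.679 and 1.85 over all 27 members, so within 2-fold for each, and within 1.5-fold for 22. The added 1 narrows this ratio for members at a few FPKM, so the 2-fold limit does not carry over to FPKM itself. The same holds for the intervals below.

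The trained libraries were set against the same control libraries. Of 27 members 0 passed the threshold in limma with Benjamini-Hochberg adjustment, against 0.00811% of all genes (1 gene), and the smallest adjusted p was 0.642 in limma. Hist2h2be, whose values are given above, was the 1 member with an unadjusted p under 0.05, against 7.71% of all genes in either direction and 3.80% for lower. It was also the 1 member whose groups did not overlap, against 12.5% in either direction and 6.08% for lower. Its level was lower in all trained libraries than in all control libraries (log2 fold change -0.18, SE 0.08). Hist1h4h, an H4 gene, stood at 2.29, 4.03 and 4.97 FPKM in trained libraries against 2.81, 2.37 and 2.18 FPKM in control libraries. It was above the controls in 2 of 3 trained libraries, replicates 2 and 3, and had the largest estimate of the members (0.43, SE 0.19). These are the 2 libraries with high Igj and Mzb1, and the part of that in Hist1h4h was not tested. The estimate was 0.24 without trained replicate 3.

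Estimates for trained against control were above 0 for 17 of 27 members, against 47.2% of all genes, with a median of 0.04 against -0.01 over all genes. Among the replacement genes H1f0 had -0.14 (SE 0.06), H3f3b -0.12 (SE 0.09), H1fx -0.04 (SE 0.08) and H3f3a 0.04 (SE 0.07) on the log2 scale. Hist2h2ac, an H2A gene, stood at 2.76, 2.16 and 1.94 FPKM in trained libraries against 1.60, 1.69 and 2.09 FPKM in control libraries, with overlapping groups. The intervals of the ratio of FPKM + 1 lay between 0.730 and 1.82, within 2-fold for all 27 members and within 1.5-fold for 25.

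The trained libraries were then set against the naive ones, both with the H2A.Z hairpin, so this comparison holds the training alone as far as the labels tell. Of 27 members 0 passed the threshold in limma with Benjamini-Hochberg adjustment, against 0.00811% of all genes (1 gene), and the smallest adjusted p was 0.578 in limma. Hist1h2be stood at 3.39, 4.85 and 4.97 FPKM in trained libraries against 5.63, 6.11 and 6.98 FPKM in naive libraries (log2 fold change -0.43, SE 0.14). Its groups did not overlap, and the same was true of H1f0 (-0.19, SE 0.06) and H3f3b (-0.20, SE 0.09), all lower in trained libraries. These were 3 of 27 members, against 15.0% of all genes in either direction and 9.16% for lower. Unadjusted p was under 0.05 for Hist1h2be and H1f0, both lower, against 8.27% of all genes in either direction and 5.53% for lower.

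All 4 replacement genes had estimates below 0 for trained against naive, and over the 27 members 10 were above 0, against 41.3% of all genes. The median of the members was -0.09, against -0.02 over all genes. Hist1h4h had the largest estimate above 0 (0.42, SE 0.19), at the trained values given above against 2.31, 2.74 and 2.33 FPKM in naive libraries. Trained replicate 1 fell below the naive libraries, and trained replicates 2 and 3, those with high Igj, lay above them. The estimate was 0.24 without trained replicate 3. The intervals of the ratio of FPKM + 1 lay between 0.567 and 1.81, within 2-fold for all 27 members and within 1.5-fold for 23.

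With both hairpin groups averaged and set against control, 0 of 27 members passed the threshold in limma with Benjamini-Hochberg adjustment (background 0%), and the smallest adjusted p was 0.418 in limma, for Hist2h2be. An unadjusted p under 0.05 was seen for 0 members, against 12.4% of all genes, and groups did not overlap for 0 members, against 4.93%. Estimates were above 0 for 17 of 27 members, against 52.1% of all genes, and the median log2 fold change was 0.06, against 0.01 over all genes. Since the comparisons against control share the control libraries, and the others share naive or trained libraries, their estimates are not independent of each other.

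**Figure D5:**
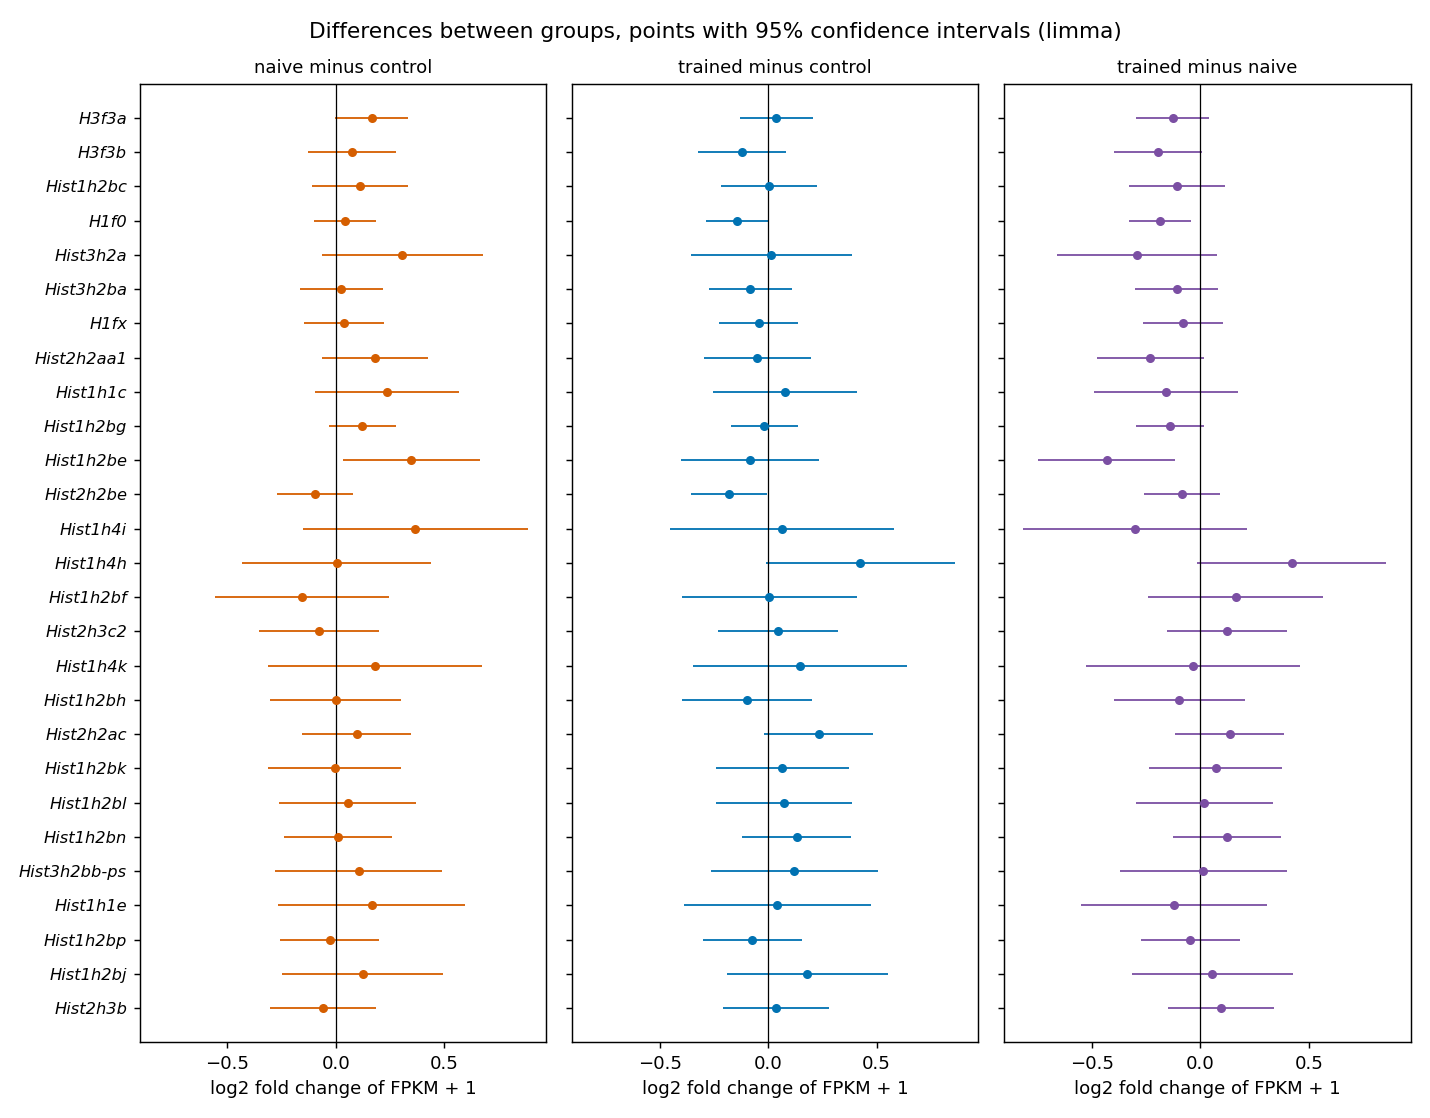
Log2 fold change of FPKM + 1 with its 95% interval for each of the 27 tested members, in naive against control, trained against control and trained against naive. No member passed the adjusted threshold in limma in any of them, and Hist1h2be has the lowest estimate for trained against naive (-0.43).

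Between the libraries, the 27 tested members varied with a coefficient of variation of 7.43% (H1fx) to 33.3% (Hist1h4h), with a median of 16.4%. The filter on level fell between Hist2h3b, at a mean of 1.22 FPKM just inside it, and Hist1h2ac, at 0.946 FPKM just outside. Hist2h3b is an H3 gene that stood at 0.995, 1.33 and 1.10 FPKM in naive, 1.23, 1.35 and 1.27 FPKM in trained and 1.34, 0.947 and 1.42 FPKM in control libraries, with all groups overlapping.

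The 43 canonical members under 1 FPKM summed to 14.4 ± 1.02 FPKM in naive, 17.4 ± 2.81 FPKM in trained and 12.9 ± 3.26 FPKM in control libraries (SD, n = 3 each). Of the canonical members, 10 were listed at 0 in at least 1 library. In a fit with no filter, 0 of the 43 passed in limma with Benjamini-Hochberg adjustment, in each of the 4 comparisons. The background there was 0% other than for trained against naive, where 0.00532% of 18813 rows passed, and the smallest adjusted p of the 43 in limma was 0.3095, for naive against control. Of the 43, groups did not overlap, for naive against control, for 5 that were higher and 3 that were lower, against 7.02% and 3.47% of the 6486 rows under 1 FPKM. For trained against control they did not overlap for 6 that were higher and 0 lower, against 5.09% and 3.08%. For trained against naive the counts were 4 higher and 2 lower, against 3.16% and 4.86%. As shares of the 43, the counts of higher members exceeded the background in each comparison. For naive against control the count of lower members exceeded it as well. None of this was tested. Among those higher in trained than in control libraries, Hist1h2ag, Hist1h2ao, Hist1h4b, Hist1h4m and Hist1h4n share 54.6% to 93.5% of their 50-base stretches with other genes. They may therefore not be separate observations. The row of Hist1h4n that was not counted stood at 0 FPKM in every trained library. In control libraries it stood at 0.572, 0.390 and 0 FPKM, so it did not repeat the higher trained level.

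Hist1h2ac, the H2A partner of Hist1h2bc, stood at 1.04, 1.09 and 1.84 FPKM in naive, 0.972, 0.930 and 1.02 FPKM in trained and 0.519, 0.283 and 0.810 FPKM in control libraries. Both hairpin groups lay above every control library, with a log2 fold change of 0.59 (SE 0.15) for naive and 0.38 (SE 0.15) for trained against control. It was the 1 low member whose groups did not overlap for both hairpin groups against control, against 1.90% of rows under 1 FPKM, and its adjusted p for that comparison was 0.400 in limma with Benjamini-Hochberg adjustment. Hist1h4m, an H4 gene singled out once its values were known, stood at 0.891, 1.91 and 1.01 FPKM in trained libraries, 0.210, 0 and 0.631 FPKM in naive libraries and 0, 0 and 0.621 FPKM in control libraries, so all trained libraries lay above all others (log2 fold change 0.93, SE 0.26, against control, limma adjusted p = 0.644 with Benjamini-Hochberg adjustment). Of the 50-base stretches of Hist1h4m, 89.8% also occur in transcripts of other genes, so its value is uncertain. Its highest value was in trained replicate 2, 1 of the 2 libraries with high Igj and Mzb1, and the part of that was not tested.

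Genes that make, bind or degrade histone mRNA and protein were read beside the members. Of the genes for 3′ end processing and decay of histone mRNA, 19 were tested and 0 passed in the 4 comparisons. Slbp, whose product binds the stem-loop, stood at 6.12, 6.63 and 5.69 FPKM in naive, 5.96, 6.89 and 5.90 FPKM in trained and 5.27, 6.73 and 5.74 FPKM in control libraries, with all groups overlapping. Lsm11, a component of the U7 ribonucleoprotein, stood at 2.14, 2.01 and 1.72 FPKM in naive libraries against 2.65, 2.72 and 2.82 FPKM in trained and 2.599, 3.22 and 2.35 FPKM in control libraries, and its naive libraries lay below all others. Estimates for both hairpin groups against control were 0.15 (SE 0.05) for Ctif, which takes part in translation of histone mRNA, 0.17 (SE 0.07) for Upf1, a helicase of their decay, and 0.11 (SE 0.04) for Cpsf2, a subunit of the cleavage complex, on the log2 scale. In this comparison 3 of the 19 had an unadjusted p under 0.05 in limma, all higher, against 12.4% of all genes in either direction. The smallest adjusted p of the 19 was 0.369 in limma with Benjamini-Hochberg adjustment.

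Of the histone chaperones, 23 were tested and 0 passed. Dek, a chaperone that binds chromatin, stood at 24.0, 22.8 and 24.0 FPKM in naive, 22.5, 21.6 and 21.6 FPKM in trained and 19.7, 21.5 and 19.2 FPKM in control libraries. All hairpin libraries lay above all control libraries (0.17, SE 0.04, limma adjusted p = 0.305 with Benjamini-Hochberg adjustment). Dek was the 1 of the 23 without overlap in this comparison, against 4.93% of all genes in either direction. Nap1l5, a member of the nucleosome assembly family, stood at 125, 130 and 128 FPKM in naive, 117, 154 and 124 FPKM in trained and 133, 185 and 156 FPKM in control libraries. Of other histone variants 7 were tested and 0 passed.

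Markers of DNA replication and mitosis were read because canonical histone genes are normally active in S phase. Of 28 listed, 24 were above 0 somewhere, 11 were tested, and 0 passed. They summed to 51.9 to 59.0 FPKM in naive, 47.0 to 52.3 FPKM in trained and 46.3 to 48.7 FPKM in control libraries, so the naive sums lay above the control sums. Mcm6, a subunit of the replicative helicase, stood at 8.40, 8.27 and 9.88 FPKM in naive, 8.89, 5.80 and 6.10 FPKM in trained and 6.77, 4.15 and 4.19 FPKM in control libraries. The separation of the sums rests on this gene: without Mcm6 the naive and control sums overlap.

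Proliferation markers that are specific to dividing cells were near the floor. Mki67 stood at 0.353, 0.613 and 0.408 FPKM in naive, 0.341, 0.710 and 0.408 FPKM in trained and 0.183, 0.281 and 0.225 FPKM in control libraries. Every hairpin library lay above every control library, as was true of 1.90% of all rows under 1 FPKM. Top2a, a topoisomerase of S phase and mitosis, stood at 0.462, 0.916 and 0.672 FPKM in naive, 0.360, 0.934 and 0.339 FPKM in trained and 0.250, 0.413 and 0.469 FPKM in control libraries, with overlap. Pcna, the sliding clamp of DNA polymerase, stood at 18.2, 19.7 and 21.02 FPKM in naive, 18.1, 19.1 and 17.4 FPKM in trained and 17.1, 20.1 and 19.4 FPKM in control libraries, with all groups overlapping. Whether the levels of the histone members move with the few dividing cells of the tissue was not tested.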

How the data were processed

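RNA was measured in 9 libraries, made per the labels' protocols from poly(A)-selected CA1 RNA with directional NEBNext reagents. Per the submitters' processing notes, TopHat 1.4.0, Cufflinks and Cuffdiff were used with mm10. The authors deposited FPKM per gene and library, with no counts, so no counting interval is given. Of 24489 rows, 27 had names turned into dates and 5649 others were 0 throughout. Depth was estimated from the steps between low values in genes with 1 transcript of over 2000 bases.

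Values were log2(FPKM + 1), which understates changes of low genes. The 12327 genes averaging 1 FPKM or more were fitted in limma 3.58.1 (R 4.3.3) with 3 groups, a variance trend, 6 residual and 2.72 prior degrees of freedom, two-sided, with Benjamini-Hochberg adjustment over all genes and a threshold of 0.05. An exact permutation test of 3 against 3 cannot go below 0.1. The labels call the replicates biological but do not tie them to single mice, so p-values measure the spread between these samples. Alternatives were another scaling, pseudocount, filter, weighting or set of samples, and each library left out. Python 3.11.15 with pandas 2.3.3 and matplotlib 3.10.9 read sequences and drew figures, and 95.4% of tested symbols matched GENCODE. The fit was tested on simulated data.

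The members and lists were chosen with earlier results of these data known. The rule names the 12 highest members, the replacement genes, the 4 smallest p-values in each comparison, the members next to the filter, H2afz, up to 4 genes per further list, and Slbp, Mki67, Top2a and Pcna. Genes named otherwise, such as Igj, Mzb1 and Xbp1, were chosen after their values were seen.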

Additional observations from a re-analysis of the deposited data

Results flagged for a closer look

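Hist1h2ao, an H2A gene under 1 FPKM on average, had hairpin groups on opposite sides of the controls, although no difference passed the threshold. It stood at 1.37, 1.46 and 0.819 FPKM in trained libraries, 0.700, 0.632 and 0.728 FPKM in naive libraries and 0.794, 0.778 and 0.782 FPKM in control libraries, so all trained libraries lay above and all naive libraries below the controls. Against control the log2 fold change was 0.30 (SE 0.11) for trained, with an adjusted p of 0.704, and -0.08 (SE 0.11) for naive, with an adjusted p of 0.787, in limma with Benjamini-Hochberg adjustment and no filter. The difference of the effects, trained minus naive, was 0.38 on the log2(FPKM + 1) scale (SE 0.11), with an adjusted p of 0.622 in the same limma fit. Of its 50-base stretches 93.5% also occur in transcripts of other genes, so its value is uncertain. It was named after its values were seen.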

How the results depend on the processing

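The number of tested members past the threshold was 0 in all 4 comparisons under every alternative run. The median log2 fold change of the members lay between 0.03 and 0.12 for naive against control, and between 0.02 and 0.09 for both hairpin groups against control. It changed sign for trained against control, at 0.04 as reported, -0.04 with a filter of 5 FPKM and -0.05 without control replicate 2. For trained against naive it was -0.09 as reported, -0.16 with a filter of 5 FPKM and 0.00 with no filter. With the 9 members left out that share over 50% of their 50-base stretches with other genes, chosen after seeing the data, the median was 0.10 for naive and -0.01 for trained against control, -0.12 for trained against naive, and 0.08 for both hairpin groups against control. The cause of these shifts was not tested. No paired analysis was possible because the labels give no replicate numbers: those used here follow the order of the sample list, only name a library and pair nothing. Low members rest on few fragments, and differences in them under the spread shown were not detectable at this depth.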
